A study of Mus musculus with 9 samples.

Results

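The 10 genes described here, Vwf, Pecam1, Cdh5, Kdr, Flt1, Tek, Tie1, Emcn, Plvap and Esam, are expressed mainly by endothelial cells, which line blood vessels. They were taken as a fixed list of the 18194 genes with a probe set on the arrays, and each gene is given by the probe set with the highest mean over the 9 arrays. Their 14 probe sets are among 45101 in all, with 2 for Cdh5, 4 for Flt1 and 1 for each other gene. The measurements came from embryonic (E13.0) XX ovaries, separated from the mesonephros and taken from embryos of busulfan-treated mothers, both ungrafted (day 0) and after growth beneath the kidney capsule of adult XY nude hosts (BALB/c nu/nu), which have no thymus. Busulfan kills germ cells, and the day 0 ovaries had been exposed to it as well. The labels give the ovary strain as ICR, whereas the methods name both C57BL/6 and ICR. Grafts had grown for 4, 7, 10, 15 or 20 days when they were removed, each array measured a pool of about 10 grafts, and 2 arrays were available for days 0, 10 and 20 against 1 for each of the other days. The duplicates are titled as biological replicates, the sources used here do not give their litters and hosts, and every p-value rests on the spread between such pools.

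A graft placed under the kidney capsule is cut off from its own circulation and has to be perfused anew. In general, vessels grow by sprouting from existing vessels under vascular endothelial growth factor (VEGF), which acts on the receptors encoded by Kdr and Flt1, and they mature under angiopoietins, which act on the receptor encoded by Tek and recruit pericytes, the mural cells of small vessels. Endothelial cells are joined by VE-cadherin, PECAM1 and related adhesion molecules, and they differ between capillaries, arteries and veins in the genes they express. Vessels of a graft can come from the donor organ, from the host or from both, and with mouse tissue in a mouse host these sources cannot be told apart on the arrays. In pooled tissue, more cells of a type and more RNA per cell cannot be told apart either.

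The 10 genes did not move as a block. Von Willebrand factor mRNA (Vwf) rose 6.29-fold by day 10, and Esam and Cdh5 had higher values on days 10 and 15 that did not pass the test. The VEGF receptors Kdr and Flt1 stayed within narrow ranges on the probe set used for each, while a second Flt1 probe set varied more. Plvap had lower values on 6 of 7 graft arrays. The Vwf value of 1 day 0 array (4.74) was under the 25th percentile of all values (4.82), and the day 10 call ended when any single array of day 0 or day 10 was left out (adjusted p from 0.108 to 0.25, limma) and where low values were raised to that percentile. Levels are log2 intensities as deposited, differences are on the log2 scale, and a gene was called where the limma test gave an adjusted p under 0.05 and a change over 2-fold. Of the 10 genes, 1 was called higher on day 10 against day 0 and 0 were called lower, beside 2.87% of all probe sets called higher and 1.33% called lower. On day 20 against day 0 the counts were again 1 higher and 0 lower, beside 4.52% and 3.1% of all probe sets. For the mean of the 5 graft days against day 0 they were 1 higher and 0 lower, beside 3.94% and 1.83%. No member was called on day 4, day 7 or day 15 alone, where 0.929%, 1.67% and 2.8% of all probe sets were called in either direction. By the limma test with no adjustment, 2, 2 and 4 of the 10 members had p under 0.05 on those days. The median difference of the 10 genes from day 0 was 0.21 on day 10 and -0.01 on day 20, where the medians of all probe sets were -0.09 and -0.11.

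**Figure D1:**
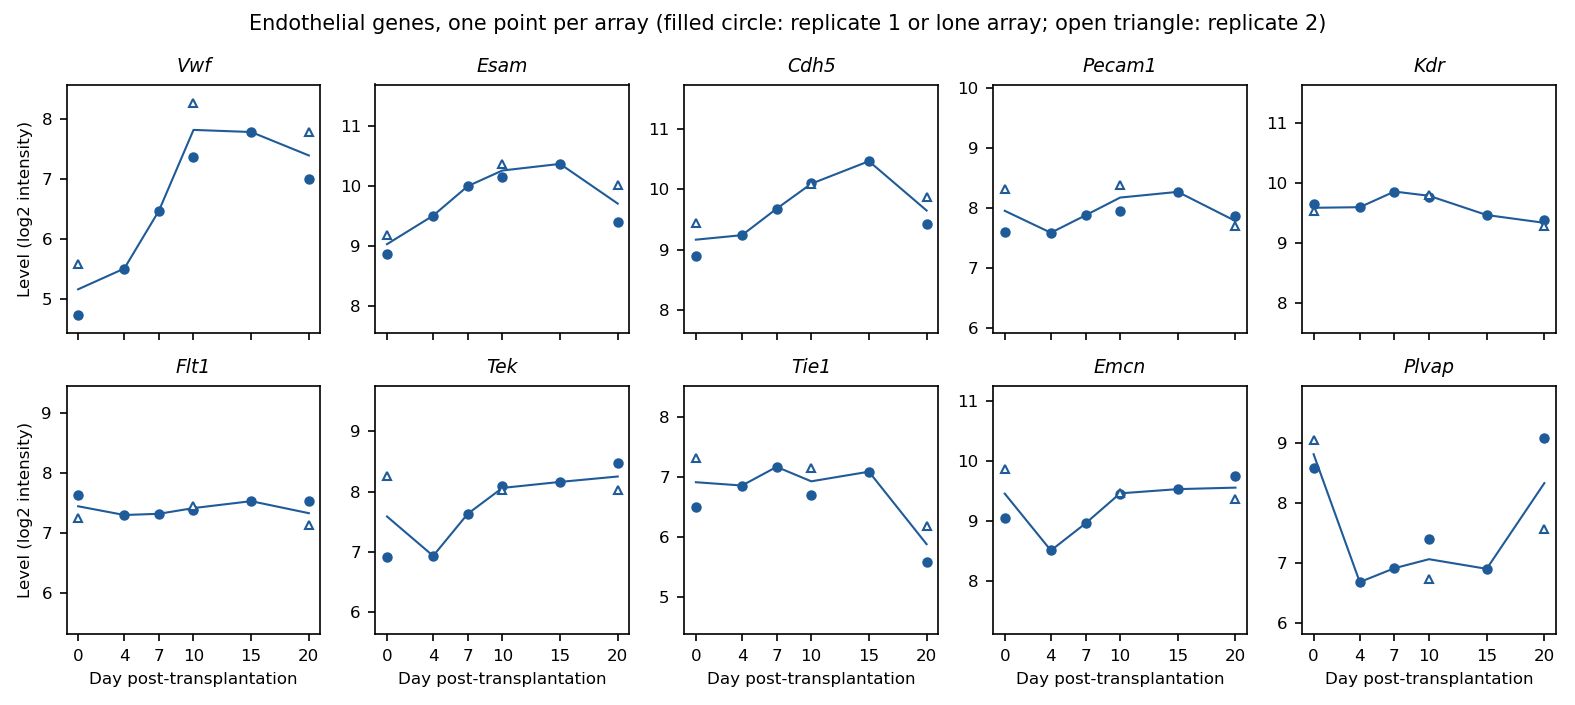
Level of each of the 10 endothelial genes (vertical axis, log2 intensity, same span in every panel) on the 9 arrays by day post-transplantation (horizontal axis). Points are arrays, lines join the day means. Vwf climbs from 4.74 and 5.59 on day 0 to 7.36 and 8.27 on day 10, Kdr and Flt1 stay nearly level, and Plvap is below its day 0 levels on days 4 to 15 and high again on 1 day 20 array.

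The values of the whole array set limit what can be read from these genes. Array medians lay between 6.49 and 6.63. Among the duplicates, the difference between replicates 2 and 1 had a standard deviation over all probe sets of 0.45 on day 0, 0.34 on day 10 and 0.70 on day 20. Foxl2, a transcription factor of the ovarian soma, stood between 11.44 and 12.98 on every array, so the labelled tissue was present by this marker. Foxl2 was the only 1 of 6 gonadal soma genes above day 0 on days 10 and 20, where the list had medians of -1.42 and -1.92. On the day 20 arrays the list median was -2.25 for replicate 1 and -1.48 for replicate 2. Of 6 gonadal soma genes 2 were called lower on day 10 and 4 on day 20, beside 1.33% and 3.1% of all probe sets. Of 5 erythroid genes 4 were called lower on each day. Among the 5, Hba-x, Hbb-bh1 and Hbb-y are globins of the embryo, and the list held no adult globin. The blood content of the grafts therefore cannot be read from it. Replicate 1 of day 20 stood apart, because the 12 kidney tubule genes on it lay at a median 5.47 above day 0 while their medians lay from -0.16 to 0.24 on the other 6 graft arrays. Several values of day 20 are therefore also given without that array. Single tubule genes were high on other grafts too. Miox stood at 5.43 and 5.58 on day 0, 7.96 and 10.19 on day 10, 10.0 on day 15 and 9.86 on replicate 2 of day 20. A second Kap probe set stood at 8.76 on replicate 2 of day 10 and 7.05 on day 15, against 4.07 and 3.97 on day 0. Of the 12 genes, 8 were above day 0 on replicate 2 of day 10 and 7 on day 15. The source of this RNA was not tested. Of 4 genes of the glomerulus, 1 was called lower on day 10 and 1 on day 20.

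On day 0 the duplicates differed in the endothelial genes themselves. Replicate 2 was higher than replicate 1 for 8 of the 10 members, by a median of 0.63, with the widest differences for Tek (1.35), Vwf (0.85), Tie1 (0.81) and Emcn (0.8). Over all probe sets, 56.1% were higher on replicate 2, by a median of 0.04. Of 20 other endothelial genes, 17 were higher on replicate 2, by a median of 0.40, and all 5 leukocyte and macrophage genes were higher, by a median of 0.89. The 9 pericyte and smooth muscle genes were split, with 5 higher and a median of 0.04. Every comparison with day 0 rests on these 2 pools, and the part of this difference in the results was not tested.

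Vwf encodes von Willebrand factor, a glycoprotein stored by endothelial cells and platelets that tethers platelets to injured vessel walls. Its levels on day 0 were 4.74 and 5.59, followed by 5.51 on day 4, 6.47 on day 7, 7.36 and 8.27 on day 10, 7.78 on day 15 and 7.00 and 7.78 on day 20. The grafts of days 7 to 20 all stood above both day 0 arrays, while the day 4 array lay between them. With the first day 0 value under the 25th percentile of the arrays, the size of the change from it is uncertain. The difference from day 0 was 2.65 (SE 0.46, adjusted p = 0.0384, limma) on day 10. On day 20 it was 2.23, a 4.69-fold rise (SE 0.46, adjusted p = 0.0414, limma), and over the 5 graft days it was 1.83, or 3.56-fold (SE 0.37, adjusted p = 0.0423, limma). On day 15 the single array gave a difference of 2.62 that did not pass (adjusted p = 0.0835, limma), and on day 7 the difference was 1.30 (adjusted p = 0.406, limma).

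The calls of Vwf depended on all 4 arrays of the days compared. With any single array of day 0 or day 10 left out the difference on day 10 was from 2.20 to 3.11, with adjusted p from 0.108 to 0.25 in the limma test. On day 20 the call ended whichever of the 6 arrays of days 0, 10 and 20 was left out, with adjusted p up to 0.164 and with a difference of 2.62 (adjusted p = 0.0613, limma) without the day 20 array on which the kidney tubule genes were high. Over the 5 graft days the call ended without either day 0 array or either day 10 array, with differences from 1.40 to 2.26 and adjusted p up to 0.215. All 3 Vwf calls ended where low values were raised to the 25th percentile, and that of day 20 also with array quality weights or with only the arrays of days 0 and 20 in the fit.

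Platelets carry von Willebrand factor too, and 8 megakaryocyte and platelet genes were set beside it. None was called on day 10 or day 20 in the limma test, with 2 at an unadjusted p under 0.05 on each day. On each of these days 1 of 8 was above day 0, beside 39.1% of all probe sets on day 10 and 38.2% on day 20. Their medians on the 7 graft arrays lay between -0.41 and -0.14, against -0.12 and 0.12 on the day 0 arrays. The exception was Pf4, a platelet chemokine, whose levels of 7.40 and 8.32 on day 0 were below all 7 graft arrays (8.64 to 9.83), with a difference of 1.10 on day 10 (adjusted p = 0.21, limma). Pf4 was highest on replicate 1 of day 20 (9.83) and on day 4 (9.80), and its lowest graft level was on day 15 (8.64). The medians of 5 leukocyte and macrophage genes were also highest on these arrays, at 3.39 and 3.32 above day 0. Their lowest graft median was on day 15 too, at 1.86. The part of platelets or leukocytes in the values of Pf4 and Vwf was not tested.

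The genes most like Vwf over the 9 arrays, among 3429 genes with a standard deviation over 0.5, were Rgs5 (Pearson r = 0.978), Olfml1 (0.976), Crispld1 (0.971), LOC664787 (0.97) and Egflam (0.969). Rgs5 encodes a regulator of G protein signalling that is typical of pericytes, and it went from 8.55 and 9.25 on day 0 to 11.17 and 11.49 on day 10. These correlations describe 9 arrays of 6 days, and with so few points many genes come close.

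Esam encodes an adhesion molecule of endothelial tight junctions that platelets also carry. Its levels were 8.88 and 9.19 on day 0, 9.51 on day 4, 10.00 on day 7, 10.15 and 10.37 on day 10, 10.37 on day 15 and 9.40 and 10.02 on day 20. All 7 graft arrays lay above both day 0 arrays, which was the case for no other member and for 10.3% of all probe sets. No member lay below both day 0 arrays on all 7 graft arrays, as 19.6% of all probe sets did. The difference from day 0 was 1.23 on day 10 (2.34-fold, SE 0.26, adjusted p = 0.0619, limma), 1.34 on day 15 (adjusted p = 0.102) and 0.68 on day 20 (adjusted p = 0.166), so none passed. With only the arrays of days 0 and 10 in the fit, Esam was called on day 10 (adjusted p = 0.0285, limma). Leaving out either day 20 array gave the same result, because a lone array adds no spread. Esam was not called on day 10 when any single array of day 0 or day 10 was left out, with differences from 1.07 to 1.38.

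Cdh5 encodes VE-cadherin, the adherens junction protein of endothelial cells. It stood at 8.89 and 9.44 on day 0, 9.24 on day 4, 9.68 on day 7, 10.1 and 10.09 on day 10, 10.47 on day 15 and 9.42 and 9.88 on day 20. The day 7, 10 and 15 arrays and replicate 2 of day 20 were above both day 0 arrays, and the other 2 graft arrays were not. The difference was 0.93 on day 10 (SE 0.26, adjusted p = 0.116, limma), 1.31 on day 15 (adjusted p = 0.106) and 0.49 on day 20 (adjusted p = 0.289), and none passed. The second Cdh5 probe set, with levels near 5.65 on average, differed in the same direction on day 10 (0.41, adjusted p = 0.293) and day 15 (0.78, adjusted p = 0.168). Cdh5 and Esam followed each other closely (r = 0.93 over the 9 arrays), and both were at their highest on day 15, Esam together with replicate 2 of day 10.

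Pecam1 encodes the adhesion molecule CD31, which is widely used to stain vessels. Its levels were 7.60 and 8.31 on day 0, 7.59 on day 4, 7.88 on day 7, 7.96 and 8.39 on day 10, 8.27 on day 15 and 7.87 and 7.70 on day 20. The day 0 pair alone spanned 0.7, and 5 of the 7 grafts fell inside that span. The difference was 0.22 on day 10 (95% interval from -0.49 to 0.93) and -0.17 on day 20 (from -0.88 to 0.55), intervals that leave out a 2-fold change. The intervals given here are unadjusted for the number of probe sets.

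**Figure D2:**
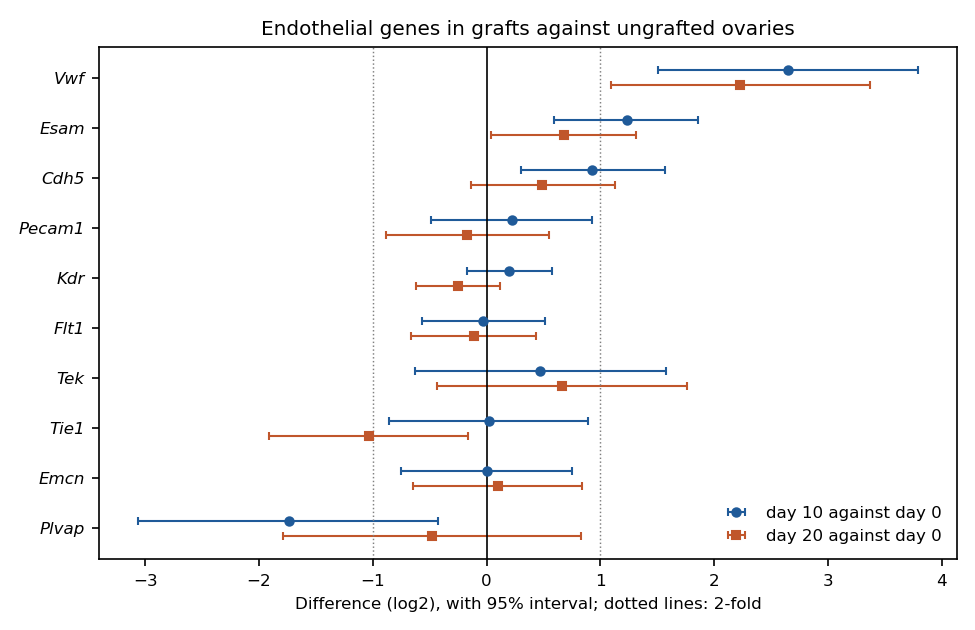
Difference from day 0 of each endothelial gene (horizontal axis, log2, with its 95% interval from the limma fit) on day 10 (circles) and day 20 (squares). The interval of Vwf lies above the 2-fold line on both days (from 1.51 to 3.79 and from 1.09 to 3.37), those of Kdr and Flt1 lie within 2-fold on both days, and those of Plvap reach from -3.06 to 0.83.

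Kdr encodes VEGF receptor 2, the main signalling receptor for VEGF. By the probe set used for each gene, it was the steadiest member on the log2 scale after Flt1. Its levels were 9.65 and 9.53 on day 0, 9.60 on day 4, 9.86 on day 7, 9.77 and 9.81 on day 10, 9.47 on day 15 and 9.39 and 9.29 on day 20. The grafts stood on both sides of the day 0 pair, with days 7 and 10 above it and days 15 and 20 below it. The difference was 0.20 on day 10 (95% interval from -0.17 to 0.57) and -0.25 on day 20 (from -0.62 to 0.12). Against day 10, Kdr on day 20 differed by -0.45 (adjusted p = 0.915, limma).

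Flt1 encodes VEGF receptor 1, which binds VEGF tightly and limits its action, also as a soluble form. Its levels lay between 7.13 and 7.64 on the 9 arrays, with 7.64 and 7.25 on day 0, 7.30 on day 4, 7.32 on day 7, 7.38 and 7.45 on day 10, 7.53 on day 15 and 7.53 and 7.13 on day 20. No graft array was above both day 0 arrays and 1 was below both. The difference was -0.03 on day 10 (95% interval from -0.57 to 0.51) and -0.11 on day 20 (from -0.66 to 0.43). The other 3 probe sets of Flt1 gave 0.30, -0.34 and -0.16 on day 10 and 0.53, -0.11 and -0.17 on day 20. The probe set second in level thus pointed the other way, and no probe set of Flt1 was called. That second probe set had a mean of 7.0 and ran from 6.46 on day 4 to 7.75 on replicate 1 of day 20. The narrow range of Flt1 is therefore that of the probe set used.

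Tek encodes TIE2, the angiopoietin receptor. The 2 day 0 pools were far apart, at 6.91 and 8.26, and were followed by 6.93 on day 4, 7.63 on day 7, 8.09 and 8.03 on day 10, 8.16 on day 15 and 8.48 and 8.02 on day 20. Only replicate 1 of day 20 lay outside the day 0 pair. The difference was 0.47 on day 10 (95% interval from -0.63 to 1.58) and 0.66 on day 20 (from -0.44 to 1.76), so that neither interval leaves out a 2-fold rise. Emcn encodes endomucin, a sialomucin of capillary and venous endothelium. Emcn stood at 9.05 and 9.86 on day 0, 8.51 on day 4, 8.96 on day 7, 9.45 and 9.47 on day 10, 9.53 on day 15 and 9.75 and 9.36 on day 20. The day 4 and day 7 arrays were below both day 0 arrays and the others lay between them, with a difference of -0.95 on day 4 (adjusted p = 0.477, limma), -0.00 on day 10 and 0.10 on day 20. Without replicate 1 of day 20, the day 20 difference was 0.43 for Tek (adjusted p = 0.662, limma) and -0.10 for Emcn (adjusted p = 0.885, limma).

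Tek and Emcn had almost the same course within the grafts, with both lowest on day 4 and highest on replicate 1 of day 20 (r = 0.99 over the 7 graft arrays and 0.89 over all 9). Because no other pair of members was so closely correlated in the grafts, their promoters are printed, as 300 bases from 250 before to 50 after the start in the RefSeq table for GRCm38.p6, which held 5 of the 10 members. That of Emcn lies at chr3:137340828-137341127 on the + strand and that of Tek at chr4:94739039-94739338 on the + strand. Capitals mark the word AGGAAG (on the other strand CTTCCT) and the word CGGAAG (on the other strand CTTCCG), which hold the core that ETS factors bind. ETS factors are a family of transcription factors active at many endothelial genes.
Emcn: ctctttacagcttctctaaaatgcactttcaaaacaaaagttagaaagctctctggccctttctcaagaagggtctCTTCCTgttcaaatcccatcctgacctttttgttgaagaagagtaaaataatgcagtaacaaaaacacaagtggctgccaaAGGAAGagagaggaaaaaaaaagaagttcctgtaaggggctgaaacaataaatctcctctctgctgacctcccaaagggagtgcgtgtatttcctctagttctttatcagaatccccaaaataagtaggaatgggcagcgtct
Tek: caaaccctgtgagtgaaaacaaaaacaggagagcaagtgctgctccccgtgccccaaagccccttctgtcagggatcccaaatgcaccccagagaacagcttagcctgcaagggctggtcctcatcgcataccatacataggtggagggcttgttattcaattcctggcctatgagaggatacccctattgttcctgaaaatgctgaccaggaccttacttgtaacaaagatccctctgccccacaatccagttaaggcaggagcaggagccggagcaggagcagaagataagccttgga
The Emcn window held 2 such words and the Tek window 0. Of the other members in the table, Tie1 held 3, Flt1 held 2 and Kdr held 0. In all, 3 of 5 members held either word on either strand, as did 46.4% of the 27025 promoters in the table. The word AGATAA, which GATA factors bind (read on the other strand as TTATCT), was present in 11.4% of all promoters and in 1 of the 5, that of Tek, within its last bases. These are matches of letters, not sites of binding.

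Tie1 encodes the orphan receptor that pairs with TIE2. Its levels were 6.51 and 7.32 on day 0, 6.86 on day 4, 7.17 on day 7, 6.71 and 7.15 on day 10, 7.09 on day 15 and 5.59 and 6.18 on day 20. The day 20 arrays were the lowest of all 9, and every earlier graft array lay within the day 0 pair. The difference was 0.02 on day 10 (95% interval from -0.86 to 0.89) and -1.03 on day 20 (from -1.91 to -0.16), which did not pass (adjusted p = 0.133, limma). Without replicate 1 of day 20 it was -0.74 (adjusted p = 0.3, limma).

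Plvap encodes the protein of the diaphragms that span the pores of fenestrated capillaries, a vessel type found in the kidney among other organs. Its levels were 8.57 and 9.04 on day 0, 6.68 on day 4, 6.91 on day 7, 7.39 and 6.73 on day 10, 6.90 on day 15 and 9.08 and 7.57 on day 20. All grafts but replicate 1 of day 20 were below both day 0 arrays, and that array was the highest of the 9. The difference was -2.12 on day 4 (adjusted p = 0.326, limma), -1.90 on day 7 (adjusted p = 0.291), -1.74 on day 10 (3.35-fold lower, SE 0.53, adjusted p = 0.143), -1.90 on day 15 (adjusted p = 0.219) and -0.48 on day 20 (adjusted p = 0.605). Over the 5 graft days it was -1.63 (3.09-fold lower, SE 0.43, adjusted p = 0.0824, limma), so that no comparison passed with all 9 arrays. Plvap was called lower over the 5 graft days without replicate 1 of day 20 (-1.78) and without replicate 2 of that day (-1.48). It was also called on day 10 without either day 20 array (-1.74). In these fits the difference within the day 20 pair no longer counts in the spread. Over the graft days Plvap was not called without either day 0 array (-1.86 and -1.39) or without replicate 1 of day 10 (-1.70). On day 10 it was not called when any single array of day 0 or day 10 was left out, with differences from -2.08 to -1.41.

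Replicate 2 minus replicate 1 of day 20 was -1.51 for Plvap, the widest difference of any member on that day. Against the day 15 array, replicate 1 was higher in Plvap by 2.18, and lower in Tie1 (-1.50), Cdh5 (-1.05), Esam (-0.97) and Vwf (-0.78). Replicate 2 differed from day 15 by 0.66 for Plvap, -0.91 for Tie1, -0.58 for Cdh5, -0.35 for Esam and 0.01 for Vwf. All 12 kidney tubule genes were lower on replicate 2 than on replicate 1, with a median difference of -5.21. The 4 glomerular genes measured were split, with 3 higher on replicate 2 and a median difference of 0.26. Nphs1 went the other way, at 6.14 on replicate 1 and 5.24 on replicate 2. Podxl (12.46 and 12.86) and Plat (11.31 and 11.22) were already high on day 0. Their levels here are therefore not particular to the glomerulus. Without replicate 1, the day 20 difference from day 0 was -1.24 for Plvap (adjusted p = 0.116, limma), 0.98 for Esam (adjusted p = 0.0669) and 0.72 for Cdh5 (adjusted p = 0.17), 0 of the 10 members were called and their median was -0.18. The part of kidney RNA in these endothelial differences was not tested. None of the 10 members was called between days 20 and 10, where 0.00222% of all probe sets were, with 2 members at an unadjusted p under 0.05 in the limma test. What made that share small was not tested. The day 20 duplicates lay far apart. Their difference had a standard deviation over all probe sets of 0.70, beside 0.34 on day 10, and replicate 1 carried the high kidney tubule genes. Whichever day 20 array was left out, 0 of the 10 members were called between these days.

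**Figure D3:**
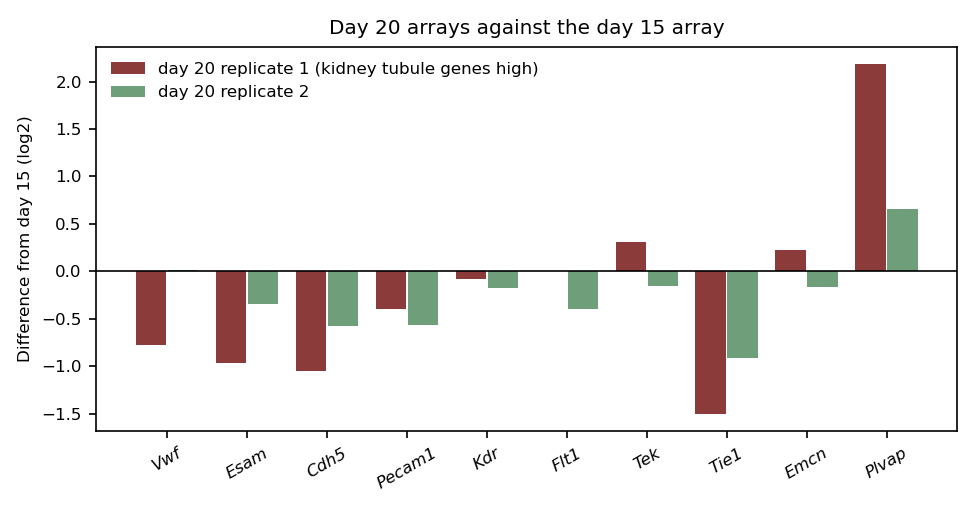
Difference of each day 20 array from the single day 15 array (vertical axis, log2) for the 10 endothelial genes. Replicate 1 (dark), on which kidney tubule genes were high, exceeds day 15 by 2.18 in Plvap and differs by -1.5 in Tie1, while replicate 2 (light) differs by 0.66 and -0.91.

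Across the course of grafting, the mean of days 15 and 20 was compared with that of days 4 and 7. Of the 10 members 8 were higher in the later grafts, beside 42.5% of all probe sets. The median of the members was 0.45, beside -0.04 over all probe sets, and 0 were called where 0.386% of all probe sets were called in either direction. By the limma test with no adjustment, 3 members had p under 0.05. The differences were 1.60 for Vwf (adjusted p = 0.224, limma), 0.92 for Tek (adjusted p = 0.476), 0.82 for Plvap (adjusted p = 0.634) and 0.80 for Emcn (adjusted p = 0.34), with Tie1 (-0.53) and Kdr (-0.32) on the other side. That of Plvap was 0.44 without replicate 1 of day 20 and 1.20 without replicate 2.

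The members correlated weakly with each other as a group. Over the 9 arrays the 45 pairs had a median r of 0.18, with 12 pairs over 0.5 and 17 under 0. Vwf, Esam and Cdh5 had r from 0.88 to 0.93 with each other, whereas Plvap ran opposite to Esam (-0.75) and, within the grafts, to Tie1 (-0.94). The genes most like the mean of the members were Myct1 (r = 0.963), Dppa3 (0.921), Hpgd (0.901), Insig1 (0.891) and Larp1b (0.889). Myct1, a gene expressed by endothelial cells, went from 6.98 and 7.66 on day 0 to 6.66 on day 4 and 8.24 on day 15, and Dppa3 is a gene of germ cells and oocytes.

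Further endothelial genes, 20 in all, were set beside the members. On day 10, 17 of 20 were above day 0, with a median of 0.77, beside 39.1% of all probe sets above day 0. Of the 20, 2 were called higher and 0 lower, beside 2.87% and 1.33% of all probe sets. Cd34, a sialomucin of endothelial and progenitor cells, had the largest rise. Its levels were 8.87 and 9.15 on day 0, 10.82 on day 4, 11.66 on day 7, 11.76 and 11.62 on day 10, 11.53 on day 15 and 11.43 and 11.14 on day 20. Every graft array was above both day 0 arrays. The difference was 2.67 on day 10 (6.38-fold, SE 0.19, adjusted p = 0.00458, limma), 1.80 on day 4 (adjusted p = 0.0413) and 2.27 on day 20 (adjusted p = 0.00392), and the day 20 call held whichever array was left out. The day 4 value comes from a single array, and that call ended when any single array of day 0 or day 10 was left out and with only the arrays of days 0 and 4 in the fit, where 0 probe sets were called on day 4. On day 10 the Cd34 call ended without either day 10 array (adjusted p up to 0.0615). Cd93, a C-type lectin-like receptor of endothelium and myeloid cells, rose by 1.49 on day 10 (adjusted p = 0.0327, limma), a call that ended when any single array of day 0 or day 10 was left out (adjusted p up to 0.209).

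On day 20, 15 of the 20 were above day 0, with a median of 0.36, beside 38.2% of all probe sets above day 0. Of the 20, 2 were called higher and 1 lower, beside 4.52% and 3.1% of all probe sets. Without replicate 1 of that day, 2 were called higher and 0 lower, with a median of 0.54. Ptprb, the phosphatase that restrains TIE2, rose by 1.24 (adjusted p = 0.0248, limma). S1pr1, the sphingosine 1-phosphate receptor that stabilises vessels, fell by 2.33 (adjusted p = 0.0281, limma), from 10.29 and 9.13 on day 0 to 7.64 and 7.12. Both calls ended without replicate 1 of day 20, among other arrays, and the highest adjusted p was 0.093 for Ptprb and 0.0817 for S1pr1.

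**Figure D4:**
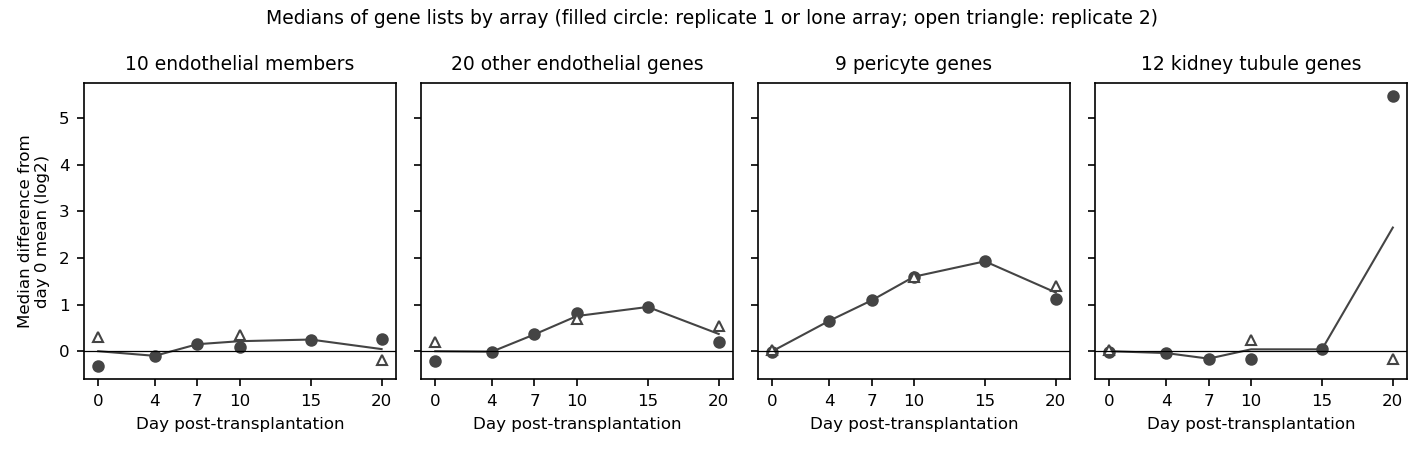
Median difference from the day 0 mean (vertical axis, log2) of the 10 endothelial members, 20 other endothelial genes, 9 pericyte and smooth muscle genes and 12 kidney tubule genes on each array by day. Lines join the day means. The pericyte median is above 0 on all grafts, the member median stays near 0, and the kidney median is 5.47 on 1 day 20 array alone.

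Among 10 genes for VEGF family ligands, angiopoietins and co-receptors, the angiopoietins had the largest changes. Angpt1, the agonist ligand of TIE2 that pericytes and other stromal cells make, stood at 5.44 and 6.55 on day 0, 7.38 on day 4, 8.44 on day 7, 9.41 and 9.0 on day 10, 9.56 on day 15 and 8.79 and 9.25 on day 20. All grafts were above both day 0 arrays. A second Angpt1 probe set was lower and changed less, with 4.92 and 5.05 on day 0 and 5.54 and 6.45 on day 10. Angpt1 rose by 3.21 on day 10 (9.25-fold, SE 0.40, adjusted p = 0.0157, limma) and by 3.03 on day 20 (8.16-fold, adjusted p = 0.0127, limma). The day 20 call held whichever array was left out, while that of day 10 ended without either day 10 array or replicate 1 of day 0 (adjusted p up to 0.13).

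Angpt2 encodes a ligand that opposes or partly mimics ANGPT1 at TIE2 and loosens vessels. A second Angpt2 probe set was low and changed less, with 4.69 and 4.86 on day 0 and 5.26 and 5.0 on day 10. By the probe set used, Angpt2 stood at 6.11 and 6.29 on day 0 and was already at 8.23 on day 4. Its later levels were 8.58 on day 7, 8.64 and 8.58 on day 10, 8.99 on day 15 and 8.10 and 9.43 on day 20. It rose by 2.41 on day 10 (5.31-fold, adjusted p = 0.0393, limma) and by 2.56 on day 20 (5.91-fold, adjusted p = 0.0227), and both calls ended when any single array of day 0 or day 10 was left out (adjusted p up to 0.26). Vegfc, a ligand best known for lymphatic growth, rose by 1.43 on day 20 (adjusted p = 0.0337, limma), a call that ended whichever array was left out (adjusted p up to 0.116). Vegfa, the principal ligand of KDR, had a difference of -0.60 on day 10 (adjusted p = 0.122, limma) and of -0.52 on day 20 (adjusted p = 0.117), with 9.88 and 9.58 on day 0 and 9.15 and 9.11 on day 10. The list had 2 genes called higher on day 10 and 3 on day 20, beside 2.87% and 4.52% of all probe sets. It had 0 genes called lower on either day, beside 1.33% and 3.1%, and medians of 0.84 and 0.70. Without replicate 1 of day 20, 2 were called higher on that day, with a median of 0.72.

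**Figure D5:**
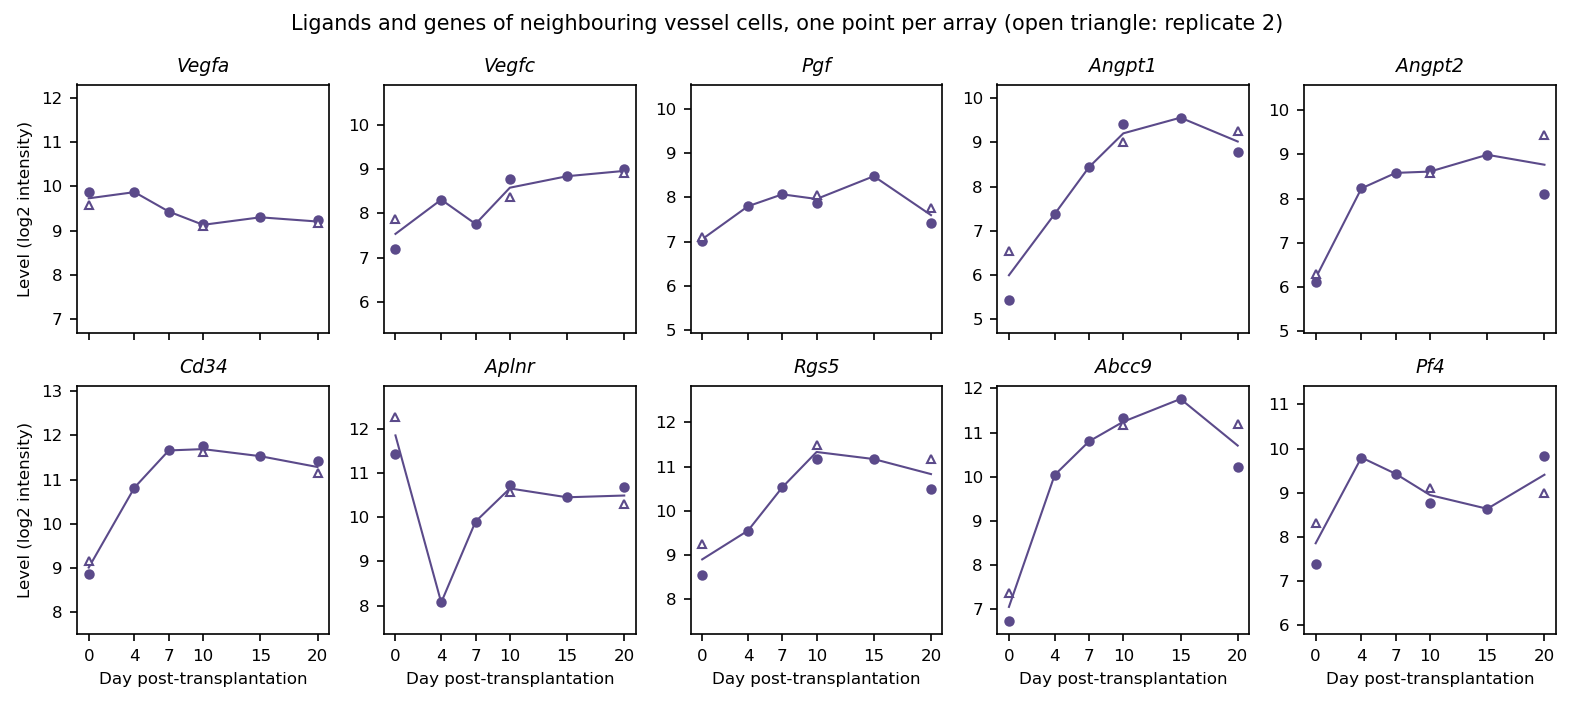
Levels (vertical axis, log2 intensity) of 5 VEGF family and angiopoietin ligands, the endothelial genes Cd34 and Aplnr, the pericyte genes Rgs5 and Abcc9 and the platelet gene Pf4 on the 9 arrays by day (horizontal axis). Points are arrays, lines join the day means. Angpt1, Angpt2, Cd34 and Abcc9 lie above both day 0 arrays on every graft array, while Aplnr is lowest on day 4 at 8.07.

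Of all probe sets, 2.87% were called higher on day 10 and 4.52% on day 20. Of 6 sprouting genes, 2 were called higher on day 10 and 0 on day 20. These were Apln, a ligand made by tip cells, by 1.19 (adjusted p = 0.0454, limma), and Pdgfb, with which endothelium attracts pericytes, by 1.13 (adjusted p = 0.0242). Both calls ended when any single array of day 0 or day 10 was left out (adjusted p up to 0.259 and 0.211). Aplnr, the receptor of apelin, stood at 11.44 and 12.26 on day 0, 8.07 on day 4, 9.90 on day 7 and between 10.29 and 10.72 on the later arrays. It was below day 0 on every graft array and fell by 3.78 on day 4 (13.7-fold, adjusted p = 0.0217, limma), where the single array gives no spread of its own. The call ended when any single array of day 0 or day 10 was left out and with only the arrays of days 0 and 4 in the fit.

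The counts in this paragraph stand beside 2.87% of all probe sets called higher on day 10 and 4.52% on day 20. The shares called lower were 1.33% and 3.1%. Of 6 arterial genes 0 were called on day 10 and 1 was called on day 20. This was Gja4, for the arterial connexin 37, which rose by 1.74 (adjusted p = 0.023, limma). The call of Gja4 ended when any single array of day 0 or day 10 was left out (adjusted p up to 0.119), and on day 10 the list had 1 gene at an unadjusted p under 0.05 in the limma test. Of 7 genes of venous or activated endothelium, 0 were called on day 10, with 2 at an unadjusted p under 0.05, and 3 were called higher and 1 lower on day 20. These were Vcam1 (3.47, adjusted p = 0.048, limma), Icam1 (1.78, adjusted p = 0.0431) and Selp (1.19, adjusted p = 0.0226), adhesion molecules that capture leukocytes, and Ephb4, a receptor of veins, which fell by 1.27 (adjusted p = 0.0358). Vcam1 was at 10.79 on replicate 1 of day 20, the array with high kidney tubule genes, and at 8.75 on replicate 2, and without replicate 1 the list had 1 gene called higher and 0 lower, since the calls of Vcam1, Selp and Ephb4 ended. That of Icam1 ended when any single array of day 0 or day 10 was left out (adjusted p up to 0.18). Alongside, 5 of 5 leukocyte and macrophage genes were called higher on day 20, by a median of 2.98, and 4 of 5 on day 10, by a median of 2.13, and without replicate 1 of day 20, 4 of 5 were called on that day, by a median of 2.57. Their part in these adhesion molecules was not tested. Of 3 lymphatic genes, Pdpn (podoplanin) was called on day 10 (1.05, adjusted p = 0.036, limma). Prox1 and Lyve1, which define the lineage, were not, with differences of -0.00 and 0.10. Prox1 lay between 3.5 and 4.04 on all arrays, under the 25th percentile of all values (4.82), so a change in it could be missed. Another Prox1 probe set, also under that percentile, went from 3.02 and 3.41 on day 0 to 4.04 and 4.25 on day 10. The Pdpn call ended when any single array of day 0 or day 10 was left out (adjusted p up to 0.233).

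The genes of pericytes and smooth muscle had a median difference of 1.49 on day 10, beside 0.21 for the 10 members and 0.77 for the 20 other endothelial genes, a comparison that was not tested. All 9 were above day 0 on day 10, beside 39.1% of all probe sets, and 4 were called higher, beside 2.87% of all probe sets. These were Abcc9 (4.19, 18.2-fold, adjusted p = 0.00694, limma), Acta2 (2.82, adjusted p = 0.00534), Rgs5 (2.43, adjusted p = 0.0202) and Kcnj8 (2.20, adjusted p = 0.0328). Abcc9 and Kcnj8 encode the subunits of a potassium channel of pericytes, and Acta2 encodes smooth muscle actin. On day 20, 8 of 9 were above day 0, beside 38.2% of all probe sets, and 4 were called higher, beside 4.52% of all probe sets. Their median on day 20 was 1.26, or 1.40 without replicate 1 of that day. Abcc9 stood at 6.74 and 7.37 on day 0 and between 10.04 and 11.76 on the grafts, all of them higher. The day 10 calls of all 4 ended without either day 10 array, with the highest adjusted p from 0.0682 for Acta2 to 0.216 for Kcnj8. The day 20 call of Acta2 held whichever array was left out, that of Abcc9 ended without replicate 1 of day 0 (adjusted p = 0.0503, limma), and those of Rgs5 and Kcnj8 ended when any single array of day 0 or day 10 was left out.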

How the data were processed

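Log2 intensities of 45101 probe sets on 9 arrays of pooled samples were analysed as deposited. The authors had obtained them with RMA, which corrects background, normalizes by quantiles and summarises each probe set. The sources used here name no version of it and do not say which of 2 labelling kits an array had. No detection call comes with the values, so precision rests on the number of arrays.

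Genes were named from the platform annotation, in which 34958 probe sets have 1 symbol, 932 have several and 9211 have no entry here. Each gene was given by the probe set with the highest mean. A mean per day was fitted to every probe set in limma 3.58.1 (lmFit, eBayes; R 4.3.3), with 3 residual and 2.69 prior degrees of freedom and Benjamini-Hochberg adjustment over all of them. The thresholds were 0.05 on the adjusted p and 2 on the fold. Promoters were searched and plots drawn in Python 3.11.15 (numpy 2.4.6; pandas 2.3.3; matplotlib 3.10.9). The fit was tested on simulated data.

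The members and the 13 other gene lists were chosen with earlier results of these data known. Of 117 list genes, members included, 111 had a probe set. The rule named all members, up to 4 genes per list with the largest change among those called on day 10 or 20, markers beside a result, and the 5 genes most correlated with Vwf and with the mean of the members. Alternatives were another spread model, array weights, normalizations, filters, samples, thresholds and probe sets, and the omission of single arrays from the duplicated days.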

Additional observations from a re-analysis of the deposited data

Results flagged for a closer look

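Pecam1 and Kdr each lay on opposite sides of the day 0 mean on days 10 and 20. For Kdr this held on both arrays of each day. Replicate 1 of day 10 was at the day 0 mean for Pecam1 (a difference of 0.0 when rounded). Its day 20 arrays (-0.08 and -0.25) lay inside the day 0 pair (-0.35 and 0.35). For Pecam1 the mean difference from day 0 was 0.22 on day 10 and -0.17 on day 20. For Kdr it was 0.20 on day 10 and -0.25 on day 20. Both comparisons share the day 0 arrays. Set directly against day 10, day 20 gave -0.39 for Pecam1 (adjusted p = 0.977, limma) and -0.45 for Kdr (adjusted p = 0.915, limma), and neither passed. The difference was not tested in any other way.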

How the results depend on the processing

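Which members were called depended on the setting. On day 10 against day 0, where 1 was called, array quality weights gave 3, quantile normalization 2, only the brighter probe sets (mean above the median) 2, values raised to the 25th percentile 0, only the arrays of the days compared 3, and arrays left out 0 to 3. On day 20 against day 0, also with 1, array quality weights, raised values and only the arrays compared gave 0 each, as did every array left out (0 to 0). On day 15 against day 0, with 0, array quality weights and the filter above the median gave 1 each, and arrays left out 0 to 1. For the mean of the 5 graft days, with 1, array quality weights and the filter gave 2 each, raised values 0, and arrays left out 0 to 2. An intensity trend, centring on medians and a fold threshold of 1.5 left the number of members called as it was in all 8 comparisons. Over all probe sets, leaving out an array moved the calls on day 10 from 1293 higher to between 69 and 1774. Centring moved the median of all probe sets on day 10 from -0.09 to -0.17. The replicate block, possible only for days 0, 10 and 20, gave 2 members on day 10 and 2 on day 20. The differences between replicates 2 and 1 correlated weakly, at -0.16 for days 0 and 10, 0.15 for days 0 and 20 and -0.13 for days 10 and 20. Whether same-numbered arrays shared litters, hosts or kits is not given, and these correlations cannot decide it. Only the arrays compared could not be used alone for the mean of the 5 graft days, which needs every array.

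Directions of small differences also turned. The second Flt1 probe set gave 0.30 on day 10, 0.53 on day 20 and 0.07 over the graft days. Tie1 on day 10 was -0.07 with quantile normalization and -0.07 with centring, and Kdr over the graft days was -0.04 with centring. With arrays left out, the day 10 differences ranged from -0.13 to 0.57 for Pecam1, -0.23 to 0.17 for Flt1, -0.20 to 1.15 for Tek, -0.39 to 0.42 for Tie1 and -0.40 to 0.40 for Emcn. The day 20 differences ranged from -0.52 to 0.18 for Pecam1, -0.31 to 0.08 for Flt1, -0.01 to 1.33 for Tek, -0.30 to 0.50 for Emcn and -1.24 to 0.28 for Plvap. Those over the graft days ranged from -0.37 to 0.34 for Pecam1, -0.03 to 0.08 for Kdr, -0.26 to 0.13 for Flt1, -0.45 to 0.89 for Tek, -0.54 to 0.27 for Tie1 and -0.66 to 0.15 for Emcn. Apart from fewer arrays where some were left out, the cause was not tested.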
